A study of Mus musculus with 8 samples.

Results

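Igf2, H19, Dlk1, Meg3 and Igf2r are 5 imprinted genes that control growth, and they lie at 3 loci of the mouse genome. Their DNA content was read from the array probes within 0.5 Mb of each locus on build mm9, which gave 3 windows of the 2369 that the array resolves at 1 Mb and 219 of its 170305 different probes. The Igf2 and H19 window (chr7:149300001-150300000) held 83 probes, the Dlk1 and Meg3 window (chr12:110250001-111250000) held 57, and the Igf2r window (chr17:12410001-13410000) held 79.

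The tumors came from 8 male FAH-/- mice, 1 tumor each, and their genomic DNA carried Cy5. Against it competed a single pool, labelled with Cy3, of liver DNA from male FAH+/+ littermates, 6 in number. Fah codes for fumarylacetoacetate hydrolase, which carries out the final step of tyrosine breakdown. Mice without it survive on NTBC (nitisinone), which stops the pathway before toxic products form. The tumor mice were kept on NTBC in the drinking water, 7.5 mg/L by default, and for 6 to 12 months on only 2.5% of the normal dose. Strain and exact age are not given in the sources used here. In array comparative genomic hybridization the red over green ratio of a probe follows the DNA content of the tumor relative to the pool. Tumors are numbered 1 to 8 by order of deposition, and each counts as 1 replicate.

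What limits the comparison is that every array used the same pool, so the spread between control mice enters no error given here. No array held normal liver of a tumor mouse, and the dyes were never swapped, so a dye bias of a probe does not cancel. A tumor sample can also hold normal cells, and a shallow loss in all cells cannot be told apart from a deeper loss in some of them. Fah itself lies on chromosome 7, as do Igf2 and H19, but its probes were not placed because no gene positions on mm9 were at hand. For the same reason the probes are described by their position in the window and not as exonic or intronic.

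In genomic imprinting the maternal and paternal copies of a gene carry different DNA methylation marks at a control region, and only one of the copies is expressed. Igf2, a growth factor of fetal tissues, is expressed from the paternal copy, and the neighbouring H19, a long non-coding RNA, from the maternal one. On chromosome 12 the paternal copy expresses Dlk1, a membrane protein related to Notch ligands, and the maternal copy expresses the long non-coding RNA Meg3 with a large array of microRNAs downstream of it. Igf2r, a receptor that carries IGF2 to the lysosome for breakdown, is expressed in mouse tissues mainly from the maternal copy, and the antisense RNA Airn is made from the paternal one. Loss of a chromosome copy can therefore remove either the active or the silent copy of each gene, and these arrays do not tell which parental copy was lost.

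The microRNAs of these loci are shown because a loss of the window takes them along with the protein-coding genes. In the RefSeq table of assembly GRCm38.p6, 60 microRNA genes lay within 0.5 Mb of Dlk1 and Meg3, beside 4 protein-coding genes (Begain, Dlk1, Rtl1 and Wdr25). The same distance held 2 microRNA genes around Igf2 and H19 and 0 around Igf2r. Mature sequences are from RefSeq, 5′ to 3′, with the seed (bases 2 to 8) in capitals. MiR-675 is cut from H19 and miR-483 lies in Igf2, both on the minus strand of chromosome 7.
miR-675-5p: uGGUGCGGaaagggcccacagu
miR-675-3p: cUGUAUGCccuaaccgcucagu
miR-483-5p: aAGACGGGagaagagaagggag
miR-483-3p: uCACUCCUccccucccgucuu
From the Meg3 side of chromosome 12, on the plus strand, miR-770 lies in Meg3, miR-127 and miR-136 lie opposite Rtl1, and miR-379 belongs to the large downstream cluster.
miR-770-5p: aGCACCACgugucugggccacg
miR-770-3p: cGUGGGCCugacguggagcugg
miR-127-5p: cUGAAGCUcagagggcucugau
miR-127-3p: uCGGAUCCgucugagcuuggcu
miR-136-5p: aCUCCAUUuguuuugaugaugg
miR-136-3p: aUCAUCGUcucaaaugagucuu
miR-379-5p: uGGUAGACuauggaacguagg
miR-379-3p: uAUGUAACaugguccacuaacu
None of these 12 arms shared its seed with another of them. The seeds of both miR-379 arms were each held by 2 of the 1738 mouse mature sequences in the table, and those of the other arms by 1.

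Levels are mean log2 ratios of tumor over pool across the probes of a window, with the commonest autosomal level of each tumor set to 0. A window was called lost at or below -0.2 and gained at or above 0.2. If every cell of a tumor had lost 1 of 2 copies, the log2 ratio would be -1. The corresponding value for 1 extra copy is 0.58. All arrays shared a strong pattern of high and low probes, with correlations across probes of 0.840 to 0.915 between arrays of tumors 1 to 6. Any pair that included tumor 7 or tumor 8 correlated at 0.668 to 0.799. Each level is therefore given with this pattern kept and with it subtracted. Subtraction lowers the noise and retains whole-chromosome changes, but by construction it also removes a short change that most tumors have in common. With the pattern subtracted, tumors 2, 7 and 8 still resembled each other, with correlations of 0.579 to 0.781 between their window deviations over 2369 windows, against a range of -0.65 to 0.781 over all pairs. Between 97.0% and 99.9% of spots were well above background, and precision is limited by there being 8 arrays. At the edge of the Dlk1 and Meg3 window, the last probe inside, 498 kb from the centre, had log2 ratios with the pattern kept of 0.01 to 1.38 over the tumors, and the first outside, at 501 kb, had -1.48 to -0.54. At Igf2 and H19 the probe inside had -1.06 to -0.47 and the one outside, at 505 kb, -1.07 to -0.08. At Igf2r they had -1.75 to -1.42 inside, at 494 kb, and -1.66 to -1.05 outside.

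Of the 3 loci, Dlk1 and Meg3 were lost most often on both scales. With the pattern kept, its window level was -0.83 in tumor 1, -0.38 in tumor 2, -0.19 in tumor 3, -0.58 in tumor 4, -0.22 in tumor 5, -0.69 in tumor 6, -0.30 in tumor 7 and -0.64 in tumor 8. All 8 tumors lay below 0, and every tumor except tumor 3 passed the loss threshold. After subtraction of the pattern the levels were -0.61, -0.199, 0.03, -0.38, -0.01, -0.49, -0.193 and -0.52 in tumors 1 to 8. Tumors 1, 4, 6 and 8 then passed the threshold, tumors 2 and 7 lay just short of it, and tumors 3 and 5 were near 0. The standard error over the probes of the window was between 0.017 and 0.036 on this scale.

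Read against the rest of the genome, 0.464% of 2369 windows of 1 Mb were lost in at least 7 tumors with the pattern kept. On the other scale, 5.45% were lost in at least 4 tumors. The share of all windows lost on that scale was 18.6% in tumor 1, 11.4% in tumor 4, 31.7% in tumor 6 and 13.4% in tumor 8. In linear terms, the Dlk1 and Meg3 window of tumor 1 stood at 65.5% of that tumor's commonest ratio, that of tumor 8 at 69.5%, that of tumor 6 at 71.3% and that of tumor 4 at 77.1%. No tumor reached the log2 ratio of -1 given above for a 1-copy loss in every cell. That value rests on the starting copy number assumed there, and how many copies the tumor cells held was not tested. Whether every cell had lost a copy therefore cannot be read from these levels.

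**Figure D1:**
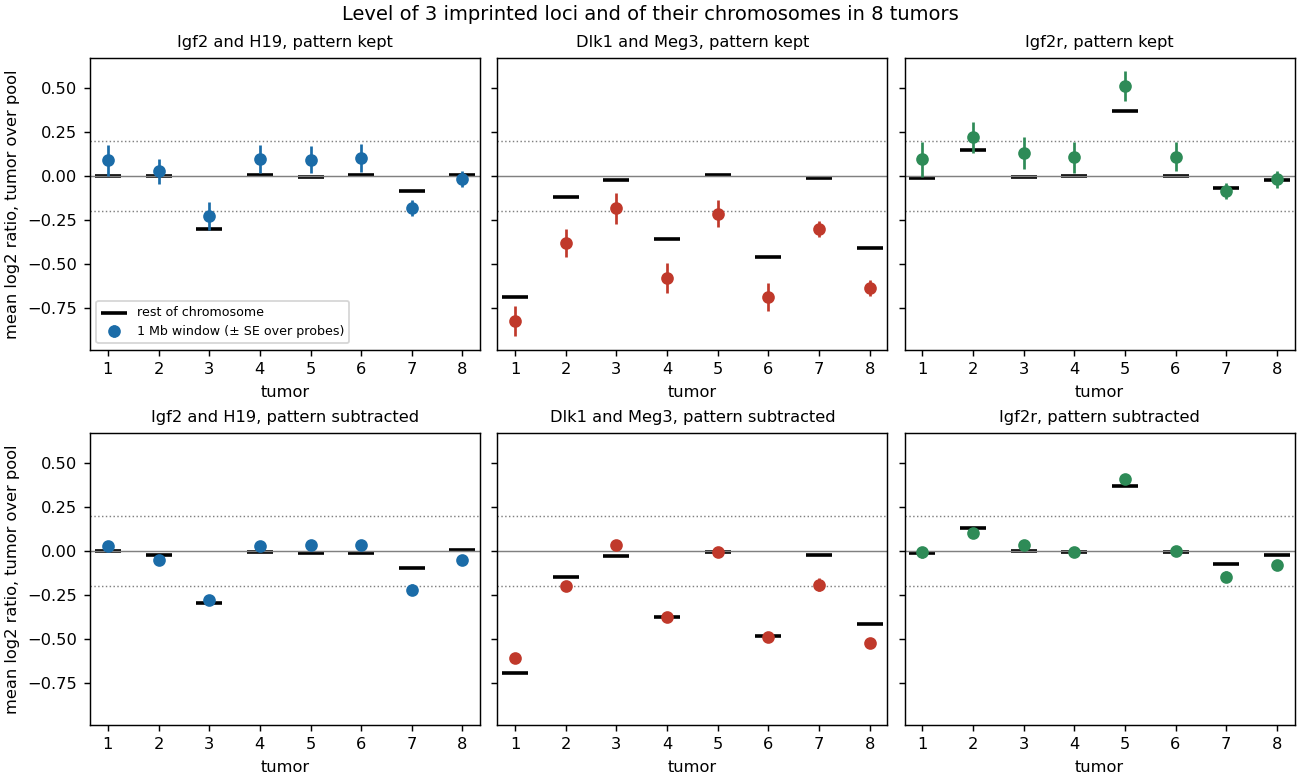
Mean log2 ratio (vertical axis) of each 1 Mb window (circles, with the standard error over probes) and of the rest of its chromosome (black bars) in tumors 1 to 8 (horizontal axis), with the shared pattern kept (top) and subtracted (bottom). Dotted lines mark the call thresholds at -0.2 and 0.2. At Dlk1 and Meg3 the circles lie below the bars in all 8 tumors in the top row, and in the bottom row tumor 7 lies farthest below its bar, at a difference of -0.17.

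The loss at Dlk1 and Meg3 belonged to a loss of chromosome 12 in each tumor that lost it with the pattern subtracted. The rest of chromosome 12 stood at -0.69 in tumor 1, -0.37 in tumor 4, -0.48 in tumor 6 and -0.41 in tumor 8, and all 4 were called lost as chromosome means. Chromosome means were called lost in 13.2% of the pairs of autosome and tumor (12.5% with the pattern kept). In tumors 1, 6 and 8 every one of the 112 windows of chromosome 12 was past the threshold after a running median over 5 windows. In tumor 4 the same held for 110 of 112 windows, and the stretch that includes Dlk1 and Meg3 ran unbroken for 47 Mb to the end of the chromosome. At its break the running median of tumor 4 rose to -0.193. Single windows there, at 39 and 38 Mb from the locus, stood at -0.14 and -0.07.

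Tumors 2 and 7 differed from these 4 in depth, and tumor 7 also in how far the low level reached. In tumor 2 the rest of chromosome 12 stood at -0.15, and 6 of 112 windows were past the threshold, the locus not among them. The running median of tumor 2 lay between -0.24 and -0.07 along the whole chromosome. In tumor 7 the rest of the chromosome stood at -0.02, and the probes within 5 Mb of the window at -0.17, close to the -0.193 of the window. The low level of tumor 7 therefore took in the locus and its flanks but not the whole chromosome. After the running median 4 of 112 windows passed the threshold, the locus not among them. That median ranged from -0.24 to 0.12 along the chromosome, and the locus window ranked 6 from the lowest of 112. Tumors 2, 7 and 8 are those whose windows resembled each other across the genome, and the part of this likeness in their levels at Dlk1 and Meg3 was not tested. Tumors 3 and 5 kept chromosome 12, at -0.03 and -0.01.

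**Figure D2:**
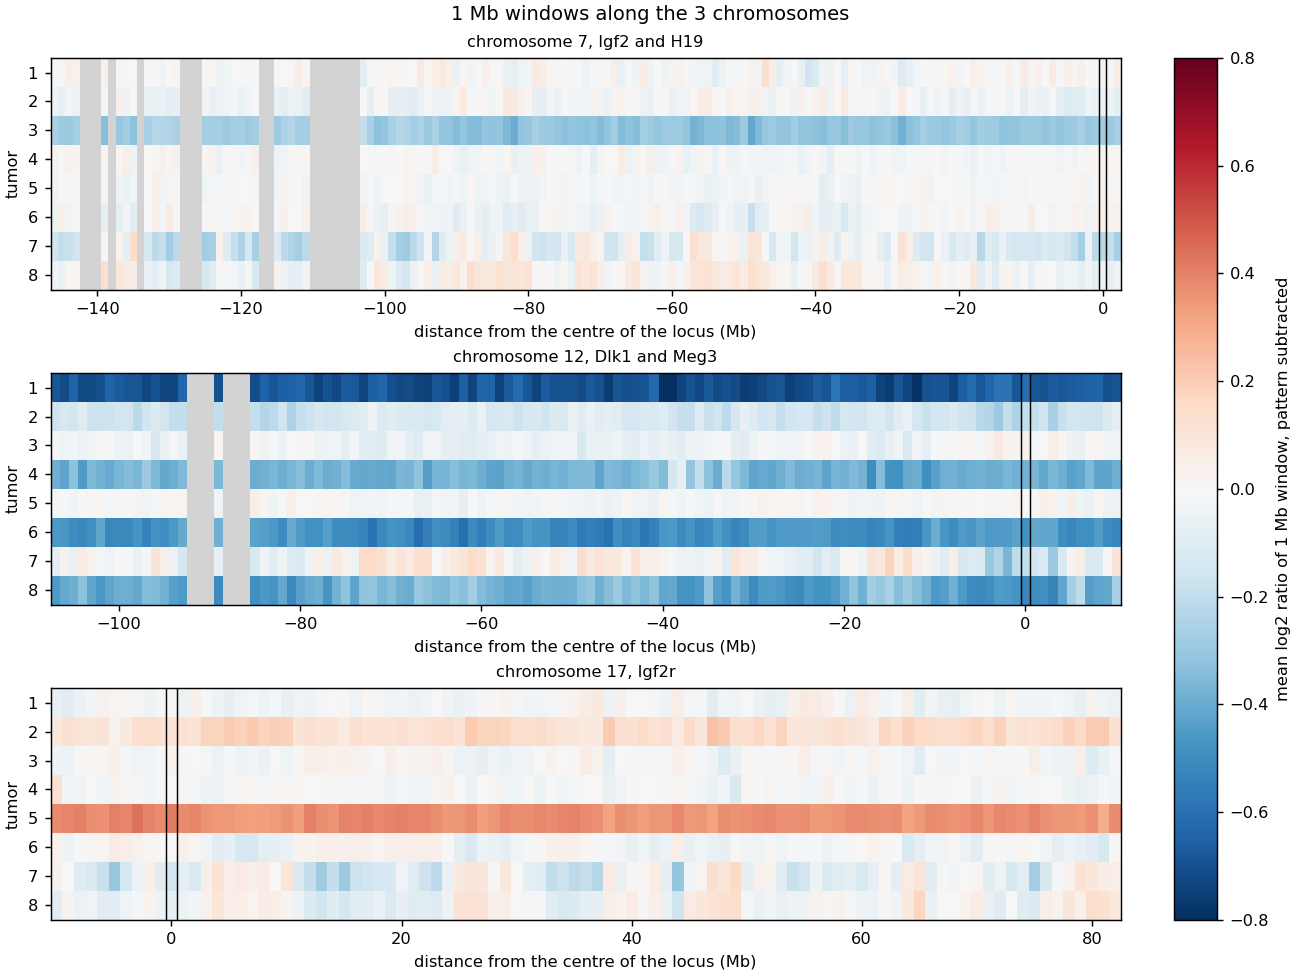
Mean log2 ratio of 1 Mb windows (colour) in each tumor (vertical axis) by distance in Mb from the centre of the locus (horizontal axis), with the shared pattern subtracted. Black lines bound the locus window and grey marks windows with under 20 probes. Chromosome 12 is low over its length in tumors 1, 4, 6 and 8, chromosome 7 in tumor 3, and chromosome 17 is high over its length in tumor 5.

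Whether Dlk1 and Meg3 are lower than their own chromosome depends on the shared pattern. With the pattern kept, the window lay below the rest of chromosome 12 in 8 of 8 tumors, by 0.14 to 0.29. The mean difference was -0.22 ± 0.050 (SD, n = 8), with a two-sided exact sign-flip p of 0.00781, which is the smallest that 8 tumors can give. In limma over all 2369 windows its adjusted p was 9.16e-06. This call was common: 24.6% of all windows were lower and 27.2% higher than their chromosome by the same fit. A share of 16.6% were below it in 8 of 8 tumors. By size, the mean difference of Dlk1 and Meg3 ranked 18 from the lowest of 2369 windows (0.76%). With the pattern subtracted it ranked 89 (3.76%). With the pattern kept and without tumors 7 and 8, the mean was -0.21 ± 0.047 (n = 6, exact p = 0.0313, the smallest for 6). On the other scale, where by construction 0% of windows passed limma in either direction (0 also at an unadjusted p under 0.05), the mean difference was -0.02 ± 0.085 (n = 8, exact p = 0.453), and the window lay below its chromosome in 5 tumors and above it in 3. Without tumors 7 and 8 it was 0.01 ± 0.049 (n = 6, exact p = 0.469), so its sign rests on those tumors. Against probes within 5 Mb on either side, all 8 tumors together gave -0.01 ± 0.037 on that scale (n = 8, exact p = 0.703). With the pattern kept the same comparison gave -0.17 ± 0.035 (n = 8, exact p = 0.00781), from -0.23 to -0.12 over the tumors. A local change shared by all 8 tumors and a property of the probes or of the pool cannot be told apart here.

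The probes of the window show how the same tumors look on either scale. Before subtraction, 32 of the 57 probes at Dlk1 and Meg3 were below 0 in all 8 tumors and 2 were above 0 in all 8. The probe at chr12:110560527-110560586 was the highest on average, at 1.04 to 2.08 in tumors 1 to 6, 0.46 in tumor 7 and 0.69 in tumor 8. The lowest on average, at chr12:110783016-110783074, ranged from -1.91 to -0.98 over the 8 tumors. Thus single probes of this window sat high or low in every tumor, whether or not chromosome 12 was lost. The SD over probes of the mean of 8 tumors fell from 0.518 to 0.0436 when the pattern was subtracted. This fall follows by construction, because the pattern was made from these same 8 arrays. In 5 equal parts of 200 kb, with the pattern subtracted, the level of tumor 1 ranged from -0.70 to -0.54. That of tumor 4 ranged from -0.41 to -0.33, that of tumor 6 from -0.65 to -0.41 and that of tumor 8 from -0.64 to -0.46. In each of these 4 tumors all 5 parts were past the threshold, while the parts of tumor 5 ranged from -0.11 to 0.04. The borderline tumors each had 3 of 5 parts past it. In tumor 7 these were the central part, at -0.28, and both parts on its proximal side, at -0.30 and -0.22. In tumor 2 they were the outermost parts, at -0.25 and -0.21, and the part next to the distal one, at -0.22. The part of tumor 7 at -0.22 held 5 probes. Standard errors over probes of these parts were 0.064 to 0.127 in tumor 7 and 0.043 to 0.054 in tumor 2. Which parts pass the threshold is therefore uncertain in both tumors.

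**Figure D3:**
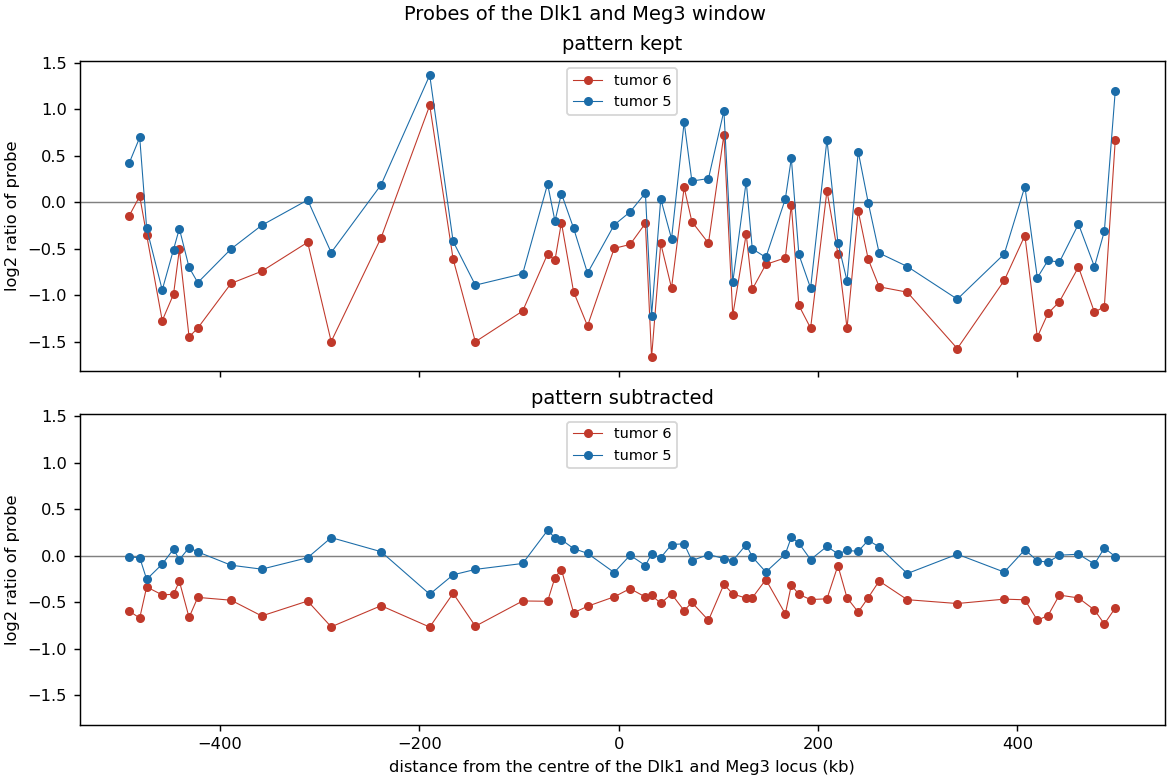
Log2 ratio of each probe (vertical axis) of the Dlk1 and Meg3 window by distance in kb from its centre (horizontal axis) in tumor 6, which lost chromosome 12, and tumor 5, which did not, with the shared pattern kept (top) and subtracted (bottom). The tumors rise and fall together in the top panel, and in the bottom panel tumor 6 lies near its window level of -0.49 and tumor 5 near -0.01.

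Other chromosomes lost in the same tumors give a scale for the depth of the loss. Among chromosome means with the pattern subtracted, tumor 1 had chromosome 4 at -0.67 and chromosome 13 at -0.66, close to chromosome 12 at -0.69. Tumor 6 had chromosomes 8, 9, 13 and 14 at -0.49, -0.45, -0.46 and -0.48, again close to chromosome 12. Its X chromosome stood at -0.49, but these male mice carry 1 copy of X, so that depth cannot be set beside those of autosomes. Shallower losses were also called in these tumors, at -0.28 for chromosome 6 of tumor 1 and -0.22 for chromosome 4 of tumor 6. In tumors 4 and 8 chromosome 12 was the deepest loss, with chromosome 14 next at -0.20 and -0.29. The windows on other chromosomes most like Dlk1 and Meg3 over the 8 tumors, by the root mean square difference of their levels, all lay on chromosome 13 with the pattern subtracted, at differences of 0.155 to 0.166. These windows were near 0 in tumor 4 (-0.02 to 0.00), where Dlk1 and Meg3 stood at -0.38.

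Igf2 and H19 were lost in fewer tumors, and only tumor 3 passed the threshold on both scales. Levels of tumors 1 to 8 with the pattern kept were 0.09, 0.03, -0.23, 0.09, 0.09, 0.10, -0.18 and -0.02. Tumors 3 and 7 were low and the other 6 lay at or a little above 0. Subtraction gave levels of 0.03, -0.05, -0.28, 0.03, 0.03, 0.03, -0.22 and -0.05. Tumors 3 and 7 were then past the loss threshold, in genomes where 32.2% and 5.7% of windows were lost on this scale (30% in tumor 3 with the pattern kept). Their windows stood at 82.4% and 85.9% of the commonest ratio, a shallower loss than that of Dlk1 and Meg3 in tumors 1, 4, 6 and 8.

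The 2 low tumors differed along chromosome 7. In tumor 3 the rest of the chromosome was at -0.30 and all 132 windows passed the threshold after the running median. Chromosomes 1, 3, 6 and 18 of tumor 3 stood at nearly the same depth, at -0.31, -0.31, -0.29 and -0.26. In tumor 7 the rest of chromosome 7 was at -0.09, and 20 of 132 windows passed the threshold. The running median of tumor 7 ranged from -0.26 to 0.08, and the Igf2 and H19 window ranked 14 from the lowest of 132. This window differed from the probes within 5 Mb by -0.03. With the pattern subtracted, the SD of window levels about their chromosome mean was 0.101 in tumor 7, against 0.042 to 0.093 in the other tumors. In tumor 7 the stretch that includes Igf2 and H19 covered the last 5 Mb of windows, with a mean of -0.19. The centre of the window lies 2.72 Mb from the last probe of the chromosome, so few windows remain on the distal side. The windows of other chromosomes most like Igf2 and H19 over the 8 tumors lay on chromosomes 18, 1 and 6, with root mean square differences of 0.0474 to 0.0554 with the pattern subtracted.

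Against the rest of chromosome 7, Igf2 and H19 showed no difference past the threshold over the 8 tumors. With the pattern kept, the mean difference was 0.04 ± 0.071 (n = 8, exact p = 0.133), above the chromosome in tumors 1 to 6 and below it in tumors 7 and 8. The adjusted p in limma was 0.130. Against probes within 5 Mb on either side the window was higher by 0.03 ± 0.021 and passed (n = 8, exact p = 0.0234). Without tumors 7 and 8 the difference from the rest of the chromosome was 0.0789 ± 0.027 and passed (n = 6, exact p = 0.0313, the smallest for 6). Subtraction of the pattern gave -0.0039 ± 0.061 (n = 8, exact p = 0.867), with tumor 7 lowest at -0.13, and 0.02 ± 0.027 without tumors 7 and 8 (n = 6, exact p = 0.0938). At the probe level, the one at chr7:149322312-149322371 was above 1 in all 8 tumors (1.03 to 2.25) with the pattern kept. This probe fell to between -0.71 and 0.48 with the pattern subtracted. The SD over the 83 probes of the mean of 8 tumors fell by construction from 0.603 to 0.055.

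**Figure D4:**
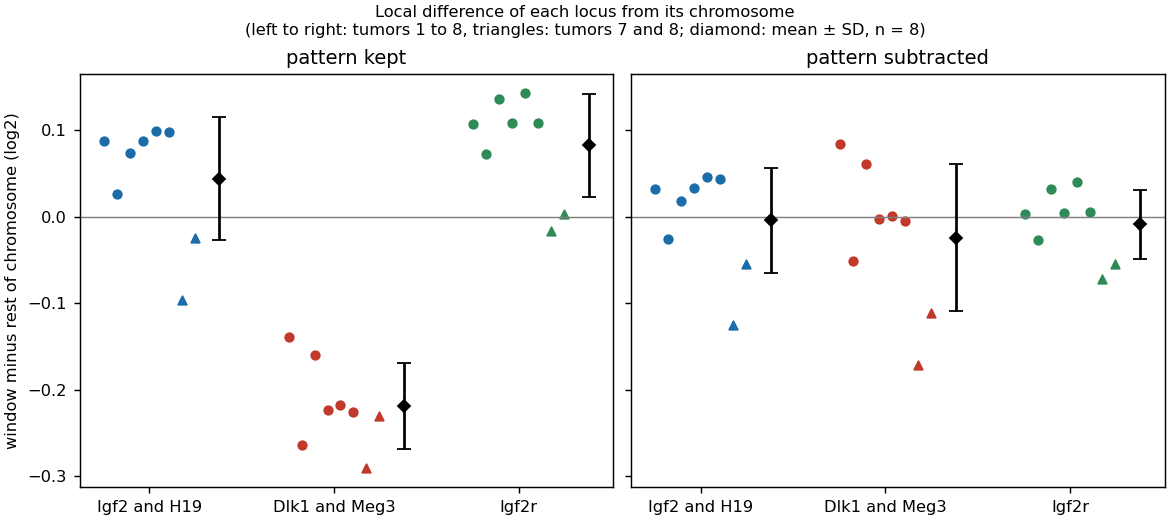
Window mean minus the mean of the rest of its chromosome on the log2 scale (vertical axis) for each locus (horizontal axis), with the shared pattern kept (left) and subtracted (right). Points are tumors 1 to 8 from left to right, triangles are tumors 7 and 8, and diamonds are the mean ± SD (n = 8). The mean of Dlk1 and Meg3 is -0.22 on the left and -0.02 on the right.

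Igf2r passed the loss threshold in 0 of 8 tumors on either scale, and 1 tumor gained it on both. Over all windows and tumors, 16% of values passed the loss threshold with the pattern kept and 14.3% without it. The levels of tumors 1 to 8 with the pattern kept were 0.09, 0.22, 0.13, 0.10, 0.51, 0.11, -0.09 and -0.02. Tumor 5 was highest, and tumor 2 also passed the gain threshold on this scale, where 18.3% and 5.95% of their windows did. Once the pattern was subtracted the levels were -0.01, 0.10, 0.03, -0.0038, 0.41, -0.0018, -0.15 and -0.08. Tumor 5 alone then passed the gain threshold, in a genome where 17.1% of windows were gained, and tumor 7 was lowest.

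The gain of tumor 5 covered chromosome 17. The rest of chromosome 17 stood at 0.37 and all 93 windows passed the gain threshold, while the Igf2r window stood at 133% of the commonest ratio. Chromosome means were called gained in 5.26% of the pairs of autosome and tumor. Chromosome 14 of tumor 5 stood at 0.39, and its chromosomes 15 and 16 at 0.69 and 0.72. The 4 parts of the Igf2r window with enough probes ranged from 0.40 to 0.42 in tumor 5. In tumor 2 the rest of chromosome 17 stood at 0.13, and 1 of 93 windows passed the gain threshold. The windows most like Igf2r lay on chromosome 16, at root mean square differences of 0.126 to 0.129 with the pattern subtracted, and stood at 0.68 to 0.73 in tumor 5.

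Relative to its chromosome, Igf2r was higher with the pattern kept, by 0.08 ± 0.059 (n = 8, exact p = 0.0234), in 7 of 8 tumors. Its adjusted p in limma was 0.00572, a call that 27.2% of windows shared in that direction. Without tumors 7 and 8 it was 0.113 ± 0.025 (n = 6, exact p = 0.0313, the smallest for 6). After subtraction the mean was -0.0085 ± 0.040 (n = 8, exact p = 0.578), with 5 tumors above the chromosome and 3 below, and 0.0099 ± 0.024 without tumors 7 and 8 (n = 6, exact p = 0.281). The probe at chr17:12792692-12792751 stood at 2.06 to 2.86 in tumors 1 to 6, 0.82 in tumor 7 and 1.01 in tumor 8 with the pattern kept. It ranged from -0.43 to 0.57 with the pattern subtracted. The last 200 kb of the window held 1 probe beyond a stretch of 195 kb without any, so a change confined to that stretch would not be seen.

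Set side by side, no tumor passed the loss threshold of -0.2 at both Igf2 and H19 and Dlk1 and Meg3 on either scale, but this rests on the threshold. Tumor 7 passed at both loci with the median over probes in place of the mean and, on either scale, with a threshold of 0.1 in size, as did tumor 3 at 0.1 with the pattern kept. On the scale with the pattern subtracted, tumors 1, 4, 6 and 8 had lost Dlk1 and Meg3, and tumor 3 had lost Igf2 and H19. Tumor 7 also passed the loss threshold at Igf2 and H19, but its chromosome 7 was uneven, with 20 of 132 windows past it after the running median. Tumor 5 had gained Igf2r, and tumor 2 passed no threshold. Tumor 2 lay at -0.199 at Dlk1 and Meg3, and it was called lost there when the pattern was made from the other 7 tumors only. With 8 tumors this is a description of these samples.

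Other imprinted genes were placed by chromosome only. For 34 such genes, 14.0% of the 272 pairs of gene and tumor were lost, against 13.2% of the pairs of autosome and tumor. The 4 on chromosome 12 were lost in tumors 1, 4, 6 and 8 with their chromosome: Rtl1, a retrotransposon-derived gene of the placenta, the non-coding RNAs Rian and Mirg, and Dio3, which inactivates thyroid hormone. The 13 on chromosome 7 were lost in tumor 3, among them Cdkn1c, an inhibitor of cyclin-dependent kinases, Phlda2, which restrains placental growth, Ins2, the insulin gene next to Igf2, and Kcnq1ot1, a non-coding RNA that silences its neighbours. The others on chromosome 7 were Kcnq1, Ascl2, Peg3, Zim1, Usp29, Ndn, Magel2, Snrpn and Ube3a. Of these 13, Ins2, Ascl2 and Kcnq1 lay at least in part within 0.5 Mb of Igf2 and H19 in GRCm38.p6. That window also passed the loss threshold in tumor 7 with the pattern subtracted, although the mean of its chromosome did not. Of the 6 on gained chromosomes, Airn, Slc22a2 and Slc22a3 on chromosome 17 were gained in tumor 5 with Igf2r, and Slc38a4, Peg13 and Kcnk9 on chromosome 15 were gained in 5 tumors (3, 4, 5, 6 and 8). Gains made up 6.62% of the 272 pairs, against 5.26% of all pairs of autosome and tumor.

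Genes that act with IGF2 and factors that keep imprints were also counted by chromosome. For 13 IGF signalling genes, 7.69% of 104 pairs of gene and tumor were lost, below the 13.2% of all pairs of autosome and tumor. Gains made up 0.96% of these 104 pairs, below the 5.26% of all pairs of autosome and tumor. Igf1r, the receptor through which IGF2 drives growth, lies on chromosome 7 and was lost in tumor 3. For 9 factors that keep imprints, 9.72% of 72 pairs were lost, also below 13.2%, and 2.78% were gained, also below 5.26%. Dnmt3a, a DNA methyltransferase that sets imprints in germ cells, lies on chromosome 12 and was lost in tumors 1, 4, 6 and 8. Trim28, a corepressor that protects imprints, lies on chromosome 7 and was lost in tumor 3, and Zfp57, which recruits it, and Uhrf1, which brings the maintenance methyltransferase to DNA, lie on chromosome 17 and were gained in tumor 5.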

How the data were processed

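Genomic DNA of 8 tumors was compared with 1 pool on 2 slides of 4 arrays. Per the submitters' processing notes, Agilent Feature Extraction 10.7.3.1 read the images. The processed signals are intensity values that the authors deposited with the background subtracted, the spatial trend removed and the dyes scaled linearly, per the file headers. The deposited log ratios are log10 of red over green, not centred, and the table of the series holds them rounded (largest difference 0.00498). Spot quality in the deposited files is marked by 0 or 1, whose unit counts as other. Probe positions are on mm9, per the file headers.

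For 174305 spots the log2 of the red over the green processed signal was taken. Spots marked as outliers (115 to 221 per array) were left out, and spots of a probe were averaged. The level most 1 Mb windows share (peak of a kernel density with bandwidth 0.05, windows of at least 20 probes) was set to 0. This level lay 0.020 to 0.234 above the array median. The shared pattern is the median over arrays of each probe after removal of chromosome medians, scaled to each array. Noise between neighbouring probes was 0.39 to 0.65 with the pattern kept and 0.12 to 0.21 without it. The median reference spot was 4.27 to 11.1 times its background and the tumor spot 4.17 to 6.56 times.

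Windows were set against the rest of their chromosome by two-sided exact sign-flip tests over tumors. Over 2369 windows this was done by limma 3.58.1 in R 4.3.3 (intercept only, Benjamini-Hochberg, adjusted p under 0.05). The fit was tested on simulated windows drawn independently, with no pattern shared by the arrays. That test does not check the adjusted p values with the pattern kept. Other steps used Python 3.11.15 with numpy 2.4.6 and pandas 2.3.3, and matplotlib 3.10.9 for plots. Genes were placed by chromosome from RefSeq GRCm38.p6, whose coordinates were not mixed with mm9. The genes named are the 5 members, the 3 most similar windows per locus on other chromosomes, and list genes on chromosomes 7, 12 and 17. Slc38a4, Peg13 and Kcnk9 were named after their values were seen. The members, lists and scales were chosen with earlier results of these data known. Alternatives were other background correction, centring, thresholds, windows, summaries and tumors left out.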

Additional observations from a re-analysis of the deposited data

Results flagged for a closer look

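With the pattern subtracted, the Igf2r level of tumor 5, 0.41, stood apart from the other 7 tumors by a gap of 0.554 of the group's whole range, above Dixon's critical value for 8 samples. The gain of tumor 5 covered all of chromosome 17. It was the only one of 24 checks in 12 groups to pass, and chance passes about 1 group in 20.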

How the results depend on the processing

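The difference of each locus from its chromosome kept its direction under every alternative run with the shared pattern kept. It passed the test under none run with the pattern subtracted, where its direction varied. Subtraction removes by construction a short change that most tumors share, so the tests on that scale cannot decide whether there is one. With a pattern made from the other 7 tumors, the difference was -0.0022 at Igf2 and H19 (n = 8, exact p = 0.953), -0.0265 at Dlk1 and Meg3 (exact p = 0.414) and -0.0066 at Igf2r (exact p = 0.695). With the shared pattern subtracted these were -0.0039, -0.0243 and -0.0085. Against 5 Mb flanks, with the pattern subtracted, Dlk1 and Meg3 were at -0.0053, Igf2r at -0.0169 and Igf2 and H19 at 0.0098. Without tumors 7 and 8 on that scale (n = 6), Dlk1 and Meg3 were at 0.0147 (exact p = 0.469), Igf2r at 0.0099 (exact p = 0.281) and Igf2 and H19 at 0.0248 (exact p = 0.0938). The flank, tumor 7 and 8 and threshold settings with the pattern subtracted were chosen after seeing the data.

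With the pattern kept, Igf2 and H19 passed the threshold with windows of 1 Mb on each side (0.0694), normexp background correction (0.0551), and without tumors 7 and 8 (0.0789, n = 6, exact p = 0.0313). Leaving out 1 tumor gave 0.0362 to 0.0642, the highest without tumor 7 (n = 7, exact p = 0.0313). The same gave -0.23 to -0.21 at Dlk1 and Meg3 and 0.0742 to 0.0970 at Igf2r. The median over probes gave 0.0680 at Igf2r (n = 8, exact p = 0.109). Slide 1 alone gave -0.197 and slide 2 alone -0.241 at Dlk1 and Meg3, and 0.106 and 0.0595 at Igf2r. A slide has 4 tumors, for which the smallest exact p is 0.125.

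Tumors with a loss at Igf2 and H19 numbered 1, but 0 with the array median as 0 or a threshold of 0.3 on either scale, and 2 with the median over probes, a threshold of 0.1 on either scale, or either subtraction. At Dlk1 and Meg3 they numbered 7 with the pattern kept, 8 at a threshold of 0.1, and 6, without tumor 5, at 0.3, with the array median as 0, the median over probes or either other window size. There they numbered 4 with the pattern subtracted, also at 0.3, 5 (tumor 2 added) with the pattern from the other 7 tumors, and 6 (tumors 2 and 7 added) at 0.1. Tumor 7 was lost at both Dlk1 and Meg3 and Igf2 and H19 with the median over probes and, on either scale, at 0.1, and tumor 3 at 0.1 with the pattern kept. At Igf2r they numbered 0, and 1 (tumor 7) with the pattern subtracted and a threshold of 0.1. Windows that differed from their chromosome by limma numbered 1227, 1061 to 1314 without 1 tumor, and 0 with the pattern subtracted (0 also at an unadjusted p under 0.05), which removes them by construction. The cause of the other changes was not tested. No paired analysis was possible because the tumors form 1 group and each is set against the same pool.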
